A study of Mus musculus with 4 samples.

Results

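The brush border is the carpet of actin-cored microvilli on the apical face of absorptive enterocytes, and 32 mouse genes that build it were followed here across 4 arrays. They were taken from a named list of actin bundlers, unconventional myosins, protocadherins, membrane linkers and terminal web proteins. That list was drawn up with earlier results of these data known. For each gene the probe set named for that gene alone with the highest mean over the 4 arrays was read. Such a probe set was found for 31 of the 32 genes among 18193 genes with one, and 30 of them passed a filter on dim signals, as did 11326 genes in all. Baiap2l2 had no probe set of its own, and Myo5a lay below the filter.

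The samples were epithelial cells of the small intestine of healthy C57BL/6J mice, 10 weeks old and kept specific pathogen-free. EDTA at 30 mM for 20 minutes on ice loosened the epithelium, which was then picked under a stereomicroscope, and total RNA was hybridised to 1-colour Affymetrix arrays. Of the 4 arrays, 2 were labelled knockout (AP-1B-/-) and 2 heterozygous (AP-1B+/-). Loss of both copies of the gene is thus set against loss of 1, and wild-type tissue was not analysed here. AP-1B is a clathrin adaptor complex that sorts proteins to the basolateral membrane of epithelial cells, and Ap1m2 encodes its medium subunit. Arrays are called by label and replicate number throughout, as knockout 1, knockout 2, heterozygous 1 and heterozygous 2. The labels do not say that each array came from its own animal, so the p-values measure the spread between these arrays, which may be technical.

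A microvillus is held up by a bundle of parallel actin filaments cross-linked by villin, espin and plastin-1, with Eps8 at the tip. Ezrin and class 1 myosins tie the bundle to the membrane, and the PDZ scaffolds NHERF1 and PDZK1 anchor transporters to ezrin. Neighbouring microvilli are joined at their tips by the protocadherins Cdhr2 and Cdhr5, which bind harmonin (Ush1c), Anks4b and the motor Myo7b in the intermicrovillar adhesion complex. The rootlets enter the terminal web, a contractile actin meshwork under the membrane that holds alpha-actinin, tropomyosin and myosin II. In enterocytes, loss of the motor Myo5b, which carries apical recycling vesicles, is known for microvillus inclusions.

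The signal is given in multiples of the array median, since the deposited values had a median between 0.996 and 0.998 on every array. The 75th percentile was 5.57 and 4.27 on knockout 1 and 2, against 4.13 and 5.54 on heterozygous 1 and 2, so bright genes tended to read higher on knockout 1 and heterozygous 2. Orders between arrays are therefore also given after quantile normalization, which gives all arrays the same distribution. The targeted gene went against 2 labels. Ap1m2 had 2.49 on knockout 1 and 22.3 on knockout 2, against 19.9 on heterozygous 1 and 4.33 on heterozygous 2. The part of the gene that was removed is not given in the sources used here, and a probe set outside it would check nothing. Xist, which is transcribed in female cells, had 0.070 and 60.1 on knockout 1 and 2, against 0.349 and 30.3 on heterozygous 1 and 2, so each label held 1 array of either pattern. An exchange of labels between arrays was not tested and cannot be settled from these values, and it would change what every difference between the labels means. Every direction given here follows the labels.

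For none of the 30 cytoskeleton genes did the difference between the labels exceed the spread between replicates by the test used. By limma with Benjamini-Hochberg adjustment over all 22519 kept probe sets, 0 of the 30 were called in either direction, as were 0% of all probe sets. At an unadjusted p under 0.05 there were 0 of the 30, beside 0.755% of all probe sets. The adjusted p was 0.999868 for each gene, and the smallest unadjusted p was 0.119, for Pdzk1. Log2 differences, knockout minus heterozygous, lay between −1.84 and 0.58, and 26 of the 30 were within 0.5 of 0. Standard errors ran from 0.37 to 1.11 with a median of 0.53, so differences of the size seen for most of these genes could not be told from 0 with 2 arrays a group.

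Most of the list nevertheless sat on the lower side in the labelled knockout. The mean log2 signal was lower on the arrays labelled knockout for 23 of the 30, with a median difference of −0.21, while 49.5% of all genes were lower and their median was 0.0040. After quantile normalization 22 of the 30 were lower, beside 49.9% of all genes. Leaving out heterozygous 2, whose label Ap1m2 did not bear out, brought the count to 15 of 30 and the median to −0.013, and without heterozygous 1 they were 27 and −0.39. In epithelium taken in bulk, fewer cells of a type and less RNA per cell cannot be told apart.

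For 11 of the 30 both arrays labelled knockout lay below both labelled heterozygous, beside 10.9% of all genes, and for 0 they lay above, beside 5.51%. The 11 were Vil1, Pls1, Ezr, Slc9a3r1, Cdhr2, Ush1c, Anks4b, Myo1a, Myo5b, Cobl and Mylk. This separation depended on the scaling. After quantile normalization only Anks4b and Myo1e had both arrays labelled knockout below, beside 11.0% of all genes, and Fscn1 and Capzb had both above, beside 11.8%. With each array divided by its 75th percentile, 5 lay below, beside 12.3% of all genes, and 1 above, beside 9.58%.

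**Figure D1:**
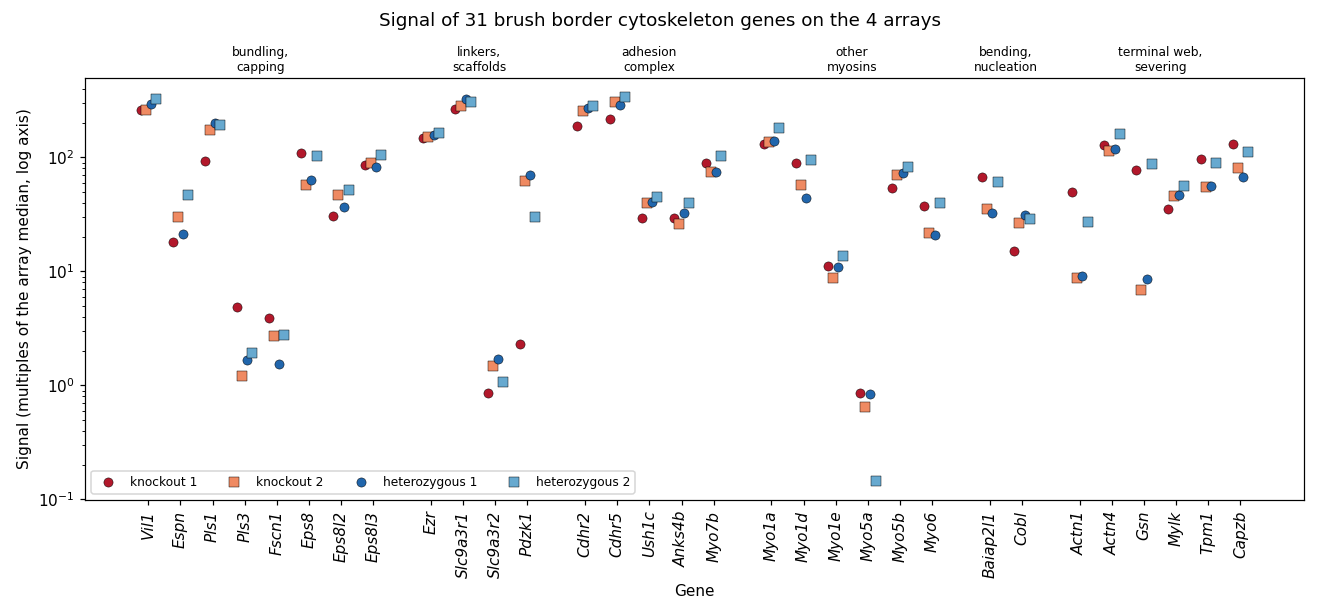
Signal of each of the 31 measured genes (multiples of the array median, log axis) on knockout 1, knockout 2, heterozygous 1 and heterozygous 2, grouped by role, 1 point per array. Villin, ezrin and the NHERF1 gene Slc9a3r1 hardly vary, while Pdzk1 is at 2.32 on knockout 1 and Gsn at 6.84 and 8.54 on knockout 2 and heterozygous 1.

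The 4 genes with the widest range over the arrays were Pdzk1, Gsn, Actn1 and Pls3, and in each the labelled groups overlapped. Pdzk1, whose product is a scaffold of several PDZ domains that binds apical transporters, had 2.32 and 61.9 on knockout 1 and 2, against 69.8 and 29.7 on heterozygous 1 and 2. Knockout 1 was thus lower than heterozygous 1 by 30.1 times, while knockout 2 read 2.08 times heterozygous 2. Its mean was 32.1 ± 42.1 on arrays labelled knockout and 49.7 ± 28.3 on those labelled heterozygous (SD, n = 2 each). The log2 difference was −1.84 (SE 1.10). Without knockout 2 the difference was −4.12 and passed the threshold (limma, adjusted p = 0.00103), but after quantile normalization of the same 3 arrays it was −4.16 and did not (limma, adjusted p = 0.322). Without knockout 1 it was 0.44 (limma, adjusted p = 0.999863). In each of these fits the lone array labelled knockout was assumed to vary like the arrays labelled heterozygous, so a call there has no replicate check.

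Gsn, which encodes the calcium-dependent severing protein gelsolin, had 77.2 and 6.84 on knockout 1 and 2, against 8.54 and 87.5 on heterozygous 1 and 2. Each label thus held 1 high and 1 low array, and the highest exceeded the lowest by 12.8 times. Actn1, for alpha-actinin-1, a cross-linker of actin in the terminal web and at junctions, split the same way with 49.8 and 8.71 on knockout 1 and 2, against 9.18 and 27.3 on heterozygous 1 and 2. Pls3, the plastin found in many non-intestinal cells, had 4.83 and 1.22 on knockout 1 and 2, against 1.68 and 1.94 on heterozygous 1 and 2. It was dim on the other 3 arrays and 2.87 times higher on knockout 1 than on heterozygous 1. With 1 array left out in turn, the log2 difference ranged from −1.96 to 1.47 for Gsn, from −0.84 to 1.63 for Actn1 and from −0.47 to 1.28 for Pls3.

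The promoters of these 4 genes are shown because their levels varied most over the arrays. Each line gives the 250 bases before the first start site that RefSeq lists for the gene (GRCm38.p6), on the coding strand.
Pdzk1, chr3:96829815-96830064, + strand: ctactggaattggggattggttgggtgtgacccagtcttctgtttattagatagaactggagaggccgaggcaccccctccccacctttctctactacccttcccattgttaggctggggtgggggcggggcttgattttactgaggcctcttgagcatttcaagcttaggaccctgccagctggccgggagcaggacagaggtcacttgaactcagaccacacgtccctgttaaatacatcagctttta
Gsn, chr2:35256109-35256358, + strand: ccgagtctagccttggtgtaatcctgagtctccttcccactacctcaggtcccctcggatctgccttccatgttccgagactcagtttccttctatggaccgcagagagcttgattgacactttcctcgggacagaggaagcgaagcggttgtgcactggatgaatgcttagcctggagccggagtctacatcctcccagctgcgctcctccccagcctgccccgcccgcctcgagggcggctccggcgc
Actn1, chr12:80260364-80260613, - strand: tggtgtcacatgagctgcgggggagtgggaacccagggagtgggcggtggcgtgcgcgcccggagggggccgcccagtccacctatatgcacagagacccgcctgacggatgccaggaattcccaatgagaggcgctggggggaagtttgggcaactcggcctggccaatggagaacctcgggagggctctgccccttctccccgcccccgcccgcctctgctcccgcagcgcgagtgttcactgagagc
Pls3, chrX:75875183-75875432, - strand: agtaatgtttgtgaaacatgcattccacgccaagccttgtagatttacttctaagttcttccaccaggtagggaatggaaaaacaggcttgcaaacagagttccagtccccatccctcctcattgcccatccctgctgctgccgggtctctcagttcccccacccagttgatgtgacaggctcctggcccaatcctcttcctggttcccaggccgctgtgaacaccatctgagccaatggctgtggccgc
The Actn1 window had a GC content of 68.4% with 18 CpG dinucleotides, and the Gsn window 60.8% with 15. The Pdzk1 and Pls3 windows had 53.2% and 54.0%, each with 4 CpG, beside a median of 52.4% and 6 CpG over 32851 windows.

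Matches to 4 motifs were searched in these windows on both strands, and windows were found for 27 of the 32 genes, with 36 start sites in all. They were CAAAGTCCA for HNF4, GTTAATNAT for HNF1, TTTATTG for CDX and the CArG box of SRF, factors known from enterocyte and actin genes. None of the lines above held a match, so they carry no capitals. The CArG box was found in 2 of the 36 windows (5.56%), those of Vil1 and Myo1e, beside 1.47% of all windows. The HNF1 letters were found in 1 (2.78%), that of Cdhr2, beside 0.737% of all windows. CAAAGTCCA and TTTATTG were in 0 of the 36, beside 0.384% and 4.20%. A match is a description of letters, not of a bound site. The 3 windows with a match are shown by their last 90 bases before the start, with the match in capitals.
Vil1, chr1:74409294-74409383, + strand: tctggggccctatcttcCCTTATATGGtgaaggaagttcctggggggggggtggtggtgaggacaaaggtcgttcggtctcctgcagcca
Myo1e, chr9:70207260-70207349, + strand: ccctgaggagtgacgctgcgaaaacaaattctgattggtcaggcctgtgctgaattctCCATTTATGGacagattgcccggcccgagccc
Cdhr2, chr13:54701373-54701462, + strand: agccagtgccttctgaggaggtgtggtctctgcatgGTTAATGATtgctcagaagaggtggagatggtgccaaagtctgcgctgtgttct
The CArG box ended 64 bases before the start of Vil1 and 23 before that of Myo1e, and the HNF1 letters 46 before that of Cdhr2. Vil1, Cdhr2 and Myo1e were lowest on knockout 1 after quantile normalization. So were 20 of the 30 genes in all, beside 34.7% of all genes. In the deposited values Vil1 and Myo1e were lowest on knockout 2, and Cdhr2 on knockout 1.

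Among the actin bundlers, the villus forms had lower values in the labelled knockout and the 2 dim ones higher, without passing the test. Vil1, which encodes villin, the bundler and severer that marks the enterocyte, had 263 and 262 on knockout 1 and 2, against 296 and 323 on heterozygous 1 and 2. The groups did not overlap, but the difference of −0.24 had a standard error of 0.37. Pls1, for plastin-1 or fimbrin, had 93.8 and 175 on knockout 1 and 2, against 199 and 191 on heterozygous 1 and 2, and knockout 1 stood apart below the other 3. Espn, for espin, which controls the length of parallel bundles, had 18.0 and 30.0 on knockout 1 and 2, against 21.1 and 47.2 on heterozygous 1 and 2. Here heterozygous 2 was the high array. Fscn1, for fascin, a bundler of filopodia, had 3.93 and 2.72 on knockout 1 and 2, against 1.53 and 2.79 on heterozygous 1 and 2. Its log2 difference of 0.58 was the highest of the list (SE 0.45), and the groups overlapped. Of the 4 probe sets of Fscn1 only this 1 passed the filter. The others had means of 0.114 to 0.371 and log2 differences of −0.16, 0.082 and −0.32.

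The 3 genes of the Eps8 family, tip proteins that cap and bundle actin, took different orders. Eps8 had 108 and 57.3 on knockout 1 and 2, against 62.9 and 103 on heterozygous 1 and 2, a split across the labels with a log2 difference of −0.033 (SE 0.54). Eps8l2 had 30.4 and 47.2 on knockout 1 and 2, against 36.9 and 52.0 on heterozygous 1 and 2, so both replicate 2 arrays were the higher ones. Eps8l3 had 85.1 and 89.5 on knockout 1 and 2, against 82.0 and 104.5 on heterozygous 1 and 2, a span of 1.27 times. Of the 8 bundling and capping genes, 6 had a lower mean in the labelled knockout and 2 a higher one (median −0.15). Among all genes 49.5% had a lower mean. Of the 8, 0 passed the test.

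Among the membrane linkers and scaffolds, Ezr and Slc9a3r1 were steady while Slc9a3r2 and Pdzk1 were not. Ezr encodes ezrin, which joins actin to the plasma membrane, and had 148.5 and 150.3 on knockout 1 and 2, against 157 and 164 on heterozygous 1 and 2. The highest array exceeded the lowest by 1.11 times, the smallest span among the 30 genes. Slc9a3r1, for the scaffold NHERF1 that binds ezrin, had 263 and 283 on knockout 1 and 2, against 322 and 306 on heterozygous 1 and 2. Both genes had groups that did not overlap in the deposited values, with log2 differences of −0.11 (SE 0.43) and −0.20 (SE 0.37). Slc9a3r2, for the related NHERF2, was dim, with 0.859 and 1.49 on knockout 1 and 2, against 1.71 and 1.08 on heterozygous 1 and 2. All 4 linker and scaffold genes were lowest on knockout 1 in the deposited values, beside 20.7% of all genes. They were so after quantile normalization too, beside 34.7%. Over the 30 genes the counts were 14 and 20.

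The adhesion complex had lower means in the labelled knockout for 5 of 5 genes (median −0.31), beside 49.5% of all genes. Of the 5, 0 passed the test. Cdhr2, a protocadherin of the tip links, had 187 and 255 on knockout 1 and 2, against 269 and 279.5 on heterozygous 1 and 2. Its partner protocadherin Cdhr5 had 215 and 306 on knockout 1 and 2, against 289 and 337 on heterozygous 1 and 2. For both, knockout 1 was the low array and the other 3 lay close together. Ush1c, for the scaffold harmonin, had 29.6 and 39.4 on knockout 1 and 2, against 40.4 and 44.8 on heterozygous 1 and 2. Anks4b, which binds harmonin, had 29.5 and 26.1 on knockout 1 and 2, against 32.8 and 39.8 on heterozygous 1 and 2. It was the gene of this complex whose groups stayed apart under both scalings, with a log2 difference of −0.38 (SE 0.54). Myo7b, the motor that places the complex at the tips, had 89.5 and 74.6 on knockout 1 and 2, against 74.5 and 103.5 on heterozygous 1 and 2, with groups that overlapped. After quantile normalization 5 of the 5 were lowest on knockout 1, beside 20 of the 30 and 34.7% of all genes.

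The other myosins took different orders over the arrays in the deposited values. Myo1a, the brush border myosin that links the core bundle to the membrane, had 132 and 135 on knockout 1 and 2, against 139.7 and 179 on heterozygous 1 and 2. Myo5b, the recycling motor, had 53.5 and 70.4 on knockout 1 and 2, against 72.9 and 82.8 on heterozygous 1 and 2. Both had groups apart in the deposited values and overlapping after quantile normalization. Myo1d, another class 1 myosin of the enterocyte, had 88.6 and 57.5 on knockout 1 and 2, against 44.3 and 93.9 on heterozygous 1 and 2. Myo6, a motor that runs toward the pointed ends of actin filaments and takes part in apical endocytosis, had 37.2 and 21.6 on knockout 1 and 2, against 20.7 and 39.99 on heterozygous 1 and 2. In Myo1d and Myo6 knockout 1 and heterozygous 2 were thus the high arrays, and log2 differences were 0.14 (SE 0.56) and −0.023 (SE 0.60). Myo1e, a long-tailed class 1 myosin, had 11.3 and 8.76 on knockout 1 and 2, against 10.9 and 13.8 on heterozygous 1 and 2. Myo5a was listed below the array median on all arrays, with 0.854 and 0.648 on knockout 1 and 2, against 0.842 and 0.146 on heterozygous 1 and 2, and was not tested.

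The 2 measured genes of membrane bending and actin nucleation went opposite ways. Baiap2l1, for the I-BAR protein IRTKS that recruits Eps8 to the tips, had 66.6 and 34.9 on knockout 1 and 2, against 32.7 and 60.6 on heterozygous 1 and 2. Cobl, for the actin nucleator cordon-bleu, had 14.99 and 26.5 on knockout 1 and 2, against 31.1 and 28.6 on heterozygous 1 and 2. Baiap2l1 was high on knockout 1 and heterozygous 2, whereas Cobl was low on knockout 1 alone, at 2.07 times less than heterozygous 1. Neither passed the test, with log2 differences of 0.11 (SE 0.59) and −0.57 (SE 0.57).

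In the terminal web group 5 of 6 genes, Gsn and Actn1 among them, had knockout 1 and heterozygous 2 above the other arrays. That order held for 56.7% of all genes. After quantile normalization 3 of 6 had it, beside 27.8% of all genes. Tpm1, an actin-coating tropomyosin, had 97.0 and 55.1 on knockout 1 and 2, against 56.3 and 89.5 on heterozygous 1 and 2. Capzb, the beta subunit of the barbed-end capping protein, had 131 and 80.7 on knockout 1 and 2, against 67.6 and 111 on heterozygous 1 and 2. Actn4, for alpha-actinin-4, varied less, with 127 and 115 on knockout 1 and 2, against 117 and 159 on heterozygous 1 and 2. Mylk, for the kinase that phosphorylates myosin light chain and drives terminal web contraction, was the exception, with 35.5 and 45.6 on knockout 1 and 2, against 47.0 and 56.4 on heterozygous 1 and 2. Its groups did not overlap in the deposited values (log2 difference −0.35, SE 0.53). Over the group, 3 means were lower and 3 higher in the labelled knockout (median −0.069).

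**Figure D2:**
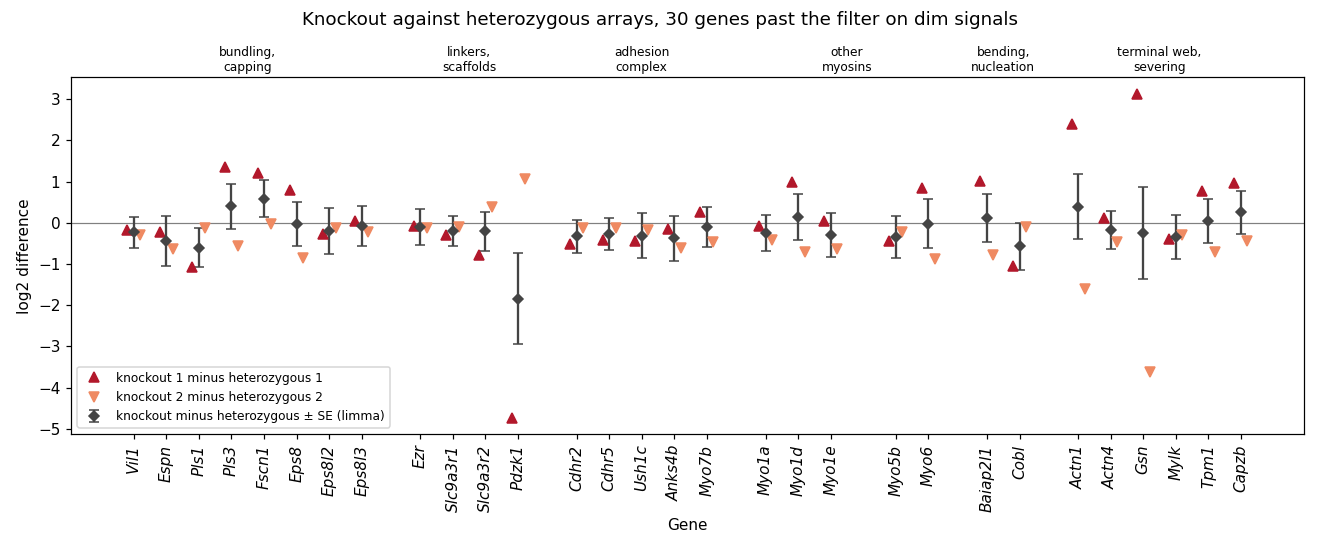
Log2 difference of the 30 genes, by role: grey diamonds with bars give knockout minus heterozygous with the limma standard error, and triangles the difference within replicate number 1 (upward) and 2 (downward). Pdzk1 has −4.73 within number 1 and 1.05 within number 2, and Gsn and Actn1 have the opposite signs.

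Within replicate numbers, the 2 differences between the labels pointed apart for the genes that varied most. Within number 1, knockout 1 was at least 2-fold from heterozygous 1 for 8 of 30 genes, beside 30.4% of all genes. Of these, Pls1, Pdzk1 and Cobl were lower on knockout 1 and Pls3, Fscn1, Baiap2l1, Actn1 and Gsn were higher. Within number 2, knockout 2 was at least 2-fold from heterozygous 2 for 3 of 30, beside 13.0%, with Actn1 and Gsn lower and Pdzk1 higher. Both shares were at or below those of all genes.

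Pairs that differ in both label and number were also compared. Knockout 2 and heterozygous 1 were at least 2-fold apart for 0 of the 30, beside 4.86% of all genes. Knockout 1 and heterozygous 2 were so for 4 of the 30, beside 12.7%, and these were Espn, Pls1, Pls3 and Pdzk1. Arrays of the same label were so for 4 (knockout 1 and 2) and 5 (heterozygous 1 and 2) of the 30, beside 27.5% and 16.9%. These pairs share arrays, so the counts are not independent.

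The order over all 4 arrays differed between scalings for many of the genes. In the deposited values, knockout 1 and heterozygous 2 were both above the other arrays for 13 of 30 (43.3%), beside 56.7% of all genes, and both below for Pdzk1 and Slc9a3r2 alone, beside 9.06%. The other 15 had neither order. After quantile normalization they were both above for 8 of the 30, beside 27.8%, and these were Pls3, Eps8, Myo1d, Myo6, Baiap2l1, Actn1, Gsn and Tpm1. They were then both below for 16 of the 30, beside 24.8%. The 16 were Vil1, Pls1, Eps8l2, Eps8l3, Ezr, Slc9a3r1, Slc9a3r2, Pdzk1, Cdhr2, Cdhr5, Ush1c, Myo7b, Myo1a, Myo5b, Cobl and Mylk. Espn, Fscn1, Anks4b, Myo1e, Actn4 and Capzb had neither order after quantile normalization. Genes of the microvillus stood on both sides, since Eps8, Myo1d, Myo6 and Baiap2l1 were among the 8. The groups in this count were read from the arrays and are not the study's, so no test was made.

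The lowest array was knockout 1 for 14 of the 30, beside 20.7% of all genes, and for 20 of the 30 after quantile normalization, beside 34.7%. Heterozygous 2 was lowest for 0 of the 30, beside 6.69% of all genes. It was highest for 18 of the 30, beside 37.8%, but after quantile normalization for 5 of the 30, beside 18.8%, where heterozygous 1 was highest for 13.

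**Figure D3:**
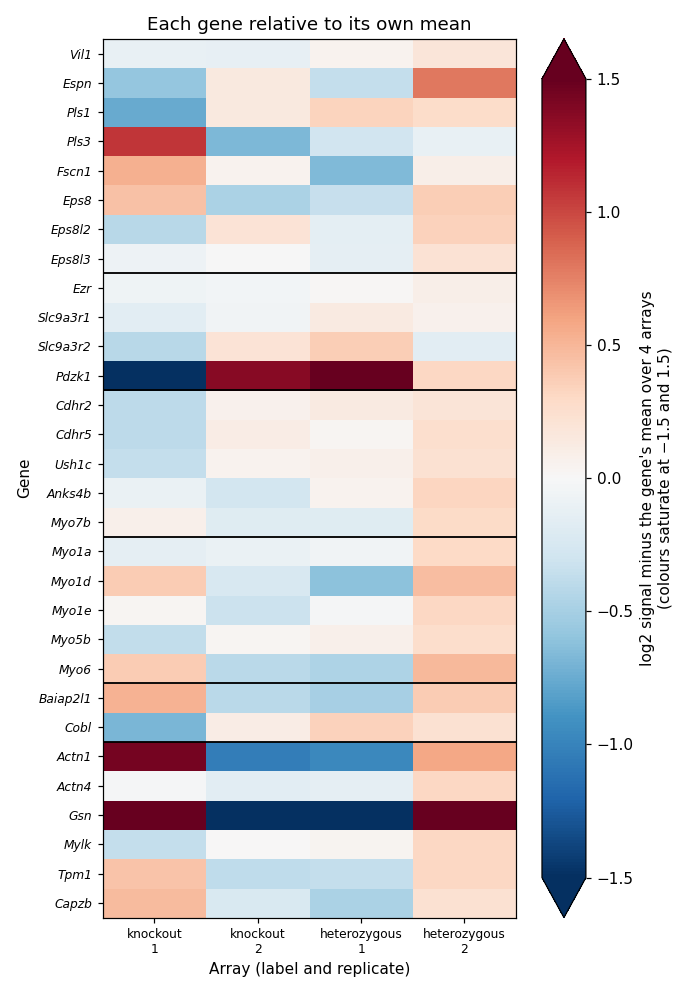
Log2 signal of each of the 30 genes minus its own mean over the 4 arrays, with columns for knockout 1, knockout 2, heterozygous 1 and heterozygous 2 and black lines between roles. Pdzk1 (low on knockout 1) and Gsn (low on knockout 2 and heterozygous 1) stand out, and Cdhr2, Cdhr5 and Ush1c are lowest on knockout 1.

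Other probe sets of the same genes were available for 14 genes past the filter. For Gsn, 4 of 4 further kept probe sets had knockout 1 and heterozygous 2 above the other arrays, for example 69.9 and 6.23 on knockout 1 and 2, against 8.87 and 72.7 on heterozygous 1 and 2. Suffixes mark 4 of the 6 Gsn probe sets as able to cross-hybridise, but a kept one without such a mark had 50.3 and 6.21 on knockout 1 and 2, against 6.37 and 61.8 on heterozygous 1 and 2. The same order held for 2 of 2 further probe sets of Actn1, Eps8 and Capzb and for 1 of 1 of Baiap2l1. It held for 1 of 2 of Myo6, 0 of 1 of Myo1d and 0 of 3 of Myo1e, and Slc9a3r2 kept its own order in 0 of 2. Tpm1 kept it in 1 of 2, and a dimmer one had the reverse, 5.02 and 5.92 on knockout 1 and 2, against 6.89 and 3.60 on heterozygous 1 and 2. Probe sets of 1 gene share their RNA, so they check the probes and not the animals.

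For the sign of the labelled difference, agreement between probe sets was looser. A second probe set of Ezr was far dimmer and had 0.962 and 5.56 on knockout 1 and 2, against 3.95 and 6.81 on heterozygous 1 and 2 (log2 difference −1.01), again lowest on knockout 1. Slc9a3r1 had −0.14 on one further probe set and 0.040 on the other. Mylk had −0.32 and 0.11, Capzb 0.070 and −0.13, Baiap2l1 −0.13 and Myo5b −0.45. The dim probe sets of Slc9a3r2 had −0.32 and 0.36 and those of Myo1e −0.43, −0.48 and 0.34. For Eps8 and Myo6 the brightest probe set and 1 of the 2 others were below 0, and the rest were at 0.032 each.

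**Figure D4:**
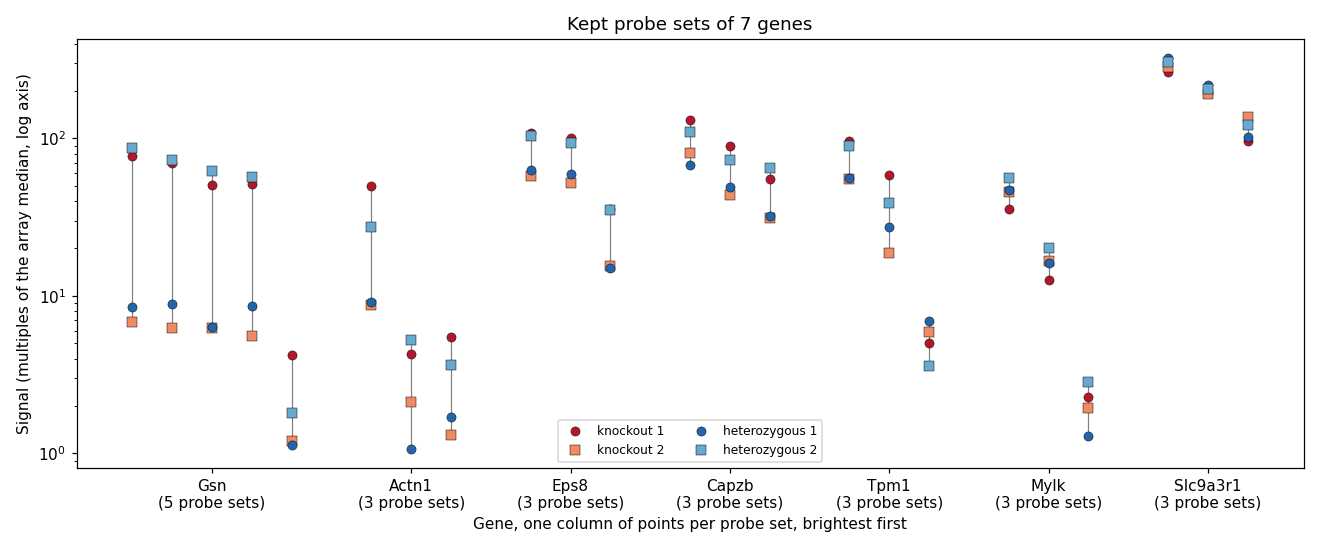
Signal (multiples of the array median, log axis) of every kept probe set of 7 genes on the 4 arrays, 1 column of points per probe set, brightest first within a gene. All 5 Gsn probe sets have knockout 1 and heterozygous 2 above knockout 2 and heterozygous 1, as do all 3 of Actn1, Eps8 and Capzb.

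A further list of 52 microvillus, ezrin-family, terminal web and actin genes, none of them among the 32, was set beside them. Of these, 45 were measured and 40 passed the filter, and 0 of the 40 passed the test in either direction by limma (0 at an unadjusted p under 0.05). Means were lower in the labelled knockout for 21 and higher for 19 (median log2 difference −0.030). The lowest differences belonged to Stk10, a kinase of ezrin-family proteins that is abundant in lymphocytes (−0.57), Avil, for advillin (−0.55), Scin, for the gelsolin relative scinderin (−0.55), and Lcp1, the leukocyte plastin (−0.41). Scin had 18.8 and 37.96 on knockout 1 and 2, against 45.4 and 34.3 on heterozygous 1 and 2, low on knockout 1 as for Pls1 and Cobl and unlike Gsn.

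The highest differences of that list were those of Myl9, a myosin light chain of smooth muscle (0.96), Myo1c (0.39), Plek2, for pleckstrin-2 (0.33), and Wasl, the Arp2/3 activator N-WASP (0.23). Myl9 was dim, with 1.69 and 2.89 on knockout 1 and 2, against 1.39 and 0.674 on heterozygous 1 and 2. Myo1c had 48.1 and 10.6 on knockout 1 and 2, against 9.23 and 31.8 on heterozygous 1 and 2, and Plek2 had 39.2 and 6.06 on knockout 1 and 2, against 6.64 and 22.8 on heterozygous 1 and 2. Both followed the order of Gsn and Actn1. The actin genes themselves were highest on knockout 1, Actb with 648 and 395 on knockout 1 and 2, against 504 and 489 on heterozygous 1 and 2, and Actg1 with 555 and 296, against 357 and 395 in the same order.

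Markers of cell types moved between arrays too, and their part in the results above was not tested. The epithelial list was high everywhere, with a summed signal of 2770 and 1528 on knockout 1 and 2, against 1643 and 2328 on heterozygous 1 and 2, and Krt8 and Krt20 as its brightest members. Differentiated enterocyte markers, led by Fabp1 and Apoa1, summed to 3842 and 4130 on knockout 1 and 2, against 5023 and 4331 on heterozygous 1 and 2. Their means were lower in the labelled knockout for 15 of 15 genes (median −0.63), beside 49.5% of all genes. Of the 15, 10 were lowest on knockout 1, beside 20.7% of all genes, as were Pdzk1, Pls1, Cobl and the protocadherins. The other 5, Alpi, Fabp1, Fabp2, Apoa1 and Apoa4, were lowest on knockout 2, and Fabp1 was highest on knockout 1. After quantile normalization 14 of the 15 were lowest on knockout 1, beside 34.7%. Proliferation markers, led by Pcna and Top2a, summed to 441 and 150 on knockout 1 and 2, against 146 and 234 on heterozygous 1 and 2. Their means were higher in the labelled knockout for 10 of 10 kept genes (median 0.49), while 49.5% of all genes were lower. Of these 10, 0 passed the test. Of the 10 kept proliferation genes, 9 had knockout 1 and heterozygous 2 above the other arrays, beside 56.7% of all genes. This was the order seen for Gsn and Actn1. After quantile normalization 5 of 10 had it, beside 27.8%.

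Summed signals of non-epithelial markers also differed between arrays, and sums of RNA signal do not count cells. Leukocyte markers summed to 60.5 and 419 on knockout 1 and 2, against 717 and 146 on heterozygous 1 and 2. Their means were lower in the labelled knockout for 14 of 15 genes (median −1.05), beside 49.5% of all genes, and 0 passed the test. Of these markers, 15 of 15 had knockout 1 and heterozygous 2 below the other arrays, beside 9.06% of all genes. Gzma had 5.79 and 149 on knockout 1 and 2, against 244 and 53.8 on heterozygous 1 and 2. Jchain had 34.1 and 39.6, against 205 and 34.9 in the same order. Pdzk1 also had knockout 1 and heterozygous 2 below the other arrays, as did 9 of the 15 enterocyte markers. After quantile normalization 10 of those 15 markers did. Gsn and Actn1 had the reverse order. Smooth muscle and stromal markers, which bear on Mylk, Tpm1, Actn1 and Pls3, summed to 32.9 and 30.6 on knockout 1 and 2, against 29.0 and 21.3 on heterozygous 1 and 2. Of their 8 kept genes, 4 had both arrays labelled knockout above both labelled heterozygous, beside 5.51% of all genes. All 4 were smooth muscle genes (Acta2, Actg2, Myh11 and Tagln), and 0 passed the test after adjustment. The count was 4 after quantile normalization, beside 11.8%, and 3 with 75th percentile scaling, beside 9.58%. Of the smooth muscle genes below the filter, Des, Cnn1 and Lmod1 had groups that overlapped, and Synm had both arrays labelled knockout above. Acta2 had 9.66 and 10.1 on knockout 1 and 2, against 5.91 and 6.39 on heterozygous 1 and 2. Actg2 had 1.92 and 2.58, against 0.952 and 0.971 in the same order (limma, unadjusted p = 0.0418), and Myh11 had 1.45 and 1.57, against 0.596 and 0.602 (limma, unadjusted p = 0.0494). These 2 were the genes of the list with an unadjusted p under 0.05. Myl9 of the further list was also higher on both arrays labelled knockout. The stromal Col3a1 had 6.08 and 3.52, against 5.28 and 4.19, and its groups overlapped. Lmod1 and Cnn1, also of smooth muscle, lay below the array median on all 4 arrays, with highest values of 0.110 and 0.686.

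Pancreatic acinar markers summed to 3.46 and 89.8 on knockout 1 and 2, against 2.63 and 19.1 on heterozygous 1 and 2. Cela2a had 0.082 and 24.5, against 0.120 and 3.49 in that order, and Cela3b 1.21 and 17.4, against 0.563 and 4.48. Both replicate 2 arrays were the high ones. Xist had them high too, with 60.1 on knockout 2 and 30.3 on heterozygous 2, against 0.070 on knockout 1 and 0.349 on heterozygous 1. Among the cytoskeleton genes that order was shown by Espn, Eps8l2, Eps8l3 and Cdhr5 in the deposited values. The highest array exceeded the lowest by 1.27 to 2.61 times in these 4, and by 299 times in Cela2a. The share of all genes with that order was not counted. After quantile normalization Eps8l2, Eps8l3 and Cdhr5 had knockout 1 and heterozygous 2 below the other arrays instead. Endothelial markers summed to between 2.68 and 5.67, with Pecam1 at 0.238 or less on every array, and Kdr and Eng as the brightest.

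**Figure D5:**
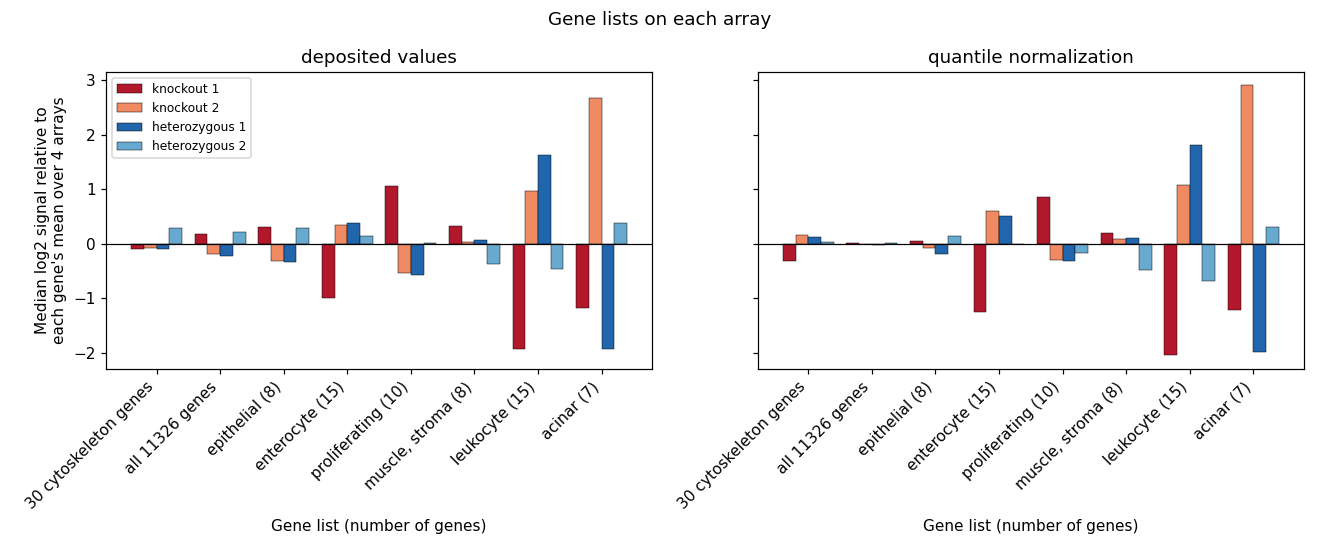
Median over each gene list of the log2 signal minus each gene's mean over the 4 arrays, as deposited (left) and after quantile normalization (right), with bars for knockout 1, knockout 2, heterozygous 1 and heterozygous 2. On knockout 1 the cytoskeleton genes are at −0.090 as deposited and −0.32 after quantile normalization, and the enterocyte markers at −0.997 and −1.24.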

How the data were processed

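Each array had a deposited intensity for each of 45037 probe sets, made with MAS5 per the submitters' processing notes, in a version that the sources used here leave unnamed. The rescaling of each array to a median near 1 was seen in the values. GEO's platform annotation gave 1 gene to 34945 probe sets, several to 932 and none to 9160, and a probe set with several genes was not used. All 31 measured genes were found in RefSeq (GRCm38.p6) under the same symbol and Entrez identifier.

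Values were taken as log2(value + 0.321), the pseudocount being the 25th percentile of all values, so folds of dim genes are understated on this scale. Probe sets were kept when their mean reached the median of such means, 0.983. The test of the labels was limma's (version 3.58.1, R 4.3.3), with variances moderated along an intensity trend and Benjamini-Hochberg adjustment over all 22519 kept probe sets and a threshold of 0.05. The fit was tested on simulated data. No exact permutation test was run, because its smallest two-sided p for groups of 2 is 0.333. Counts over gene lists used 11326 genes, each with its brightest kept probe set. The number of arrays limits the precision, and no detection calls were used here.

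The members, lists, roles and motifs were chosen with earlier results of these data known. All members were named, and with them Ap1m2, the 4 lowest and 4 highest differences of the further list with Actb and Actg1, and the 2 brightest markers of each cell type. Xist, the values of Scin, the other smooth muscle genes and marker genes below the median were added after values were seen, and so were the windows with a motif match. A planned comparison of the proteins was not made, and the background correction could not be varied. Other pseudocounts, filters, scalings, variance models, pairings and probe set rules were tried, and each array was left out in turn.

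Replicate numbers occur in both groups, but the labels do not say that they pair the arrays. In the deposited values, the difference of knockout 1 and 2 had a correlation of −0.51 with that of heterozygous 1 and 2. It was taken across kept probe sets, which are not independent. Bright genes tended to read higher on knockout 1 and heterozygous 2 on that scale, and the correlation was not computed after quantile normalization.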

Additional observations from a re-analysis of the deposited data

How the results depend on the processing

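The call of 0 of 30 cytoskeleton genes held under other pseudocounts, filters, scalings, variance models and averaging of each gene's probe sets, and with each array left out except knockout 2, where Pdzk1 passed (0 to 1 genes with 1 array left out). Over all probe sets, 0 passed as reported. With the brightest 25% tested 1 passed, and with 1 array left out between 0 and 240 did, the 240 without knockout 2 and 24 without knockout 1, while quantile normalization without knockout 2, chosen after seeing the data, gave 0. With 1 array left out its label has a lone array, which is assumed to vary like the other label's 2. The cause was not tested. With the replicate number as a block, 0 genes of the list and 0 probe sets passed, and the median difference stayed at −0.208. With the pairs crossed (knockout 1 with heterozygous 2), chosen after seeing the data, 0 and 0 passed.

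The median difference of the list was negative under each setting for which it was computed (not the crossed pairs, nor quantile normalization without knockout 2), −0.183 to −0.235 with all arrays and −0.391 to −0.0135 with 1 left out. The count of genes lower in the labelled knockout was 15 to 27 with 1 array left out, and 15 came without heterozygous 2. Those counts are from the deposited values without scaling, and the share of all genes was not counted for them. The count lowest on knockout 1 was 14 to 16 when 1 of the others was left out. Of 267 differences of single genes under other settings of all 4 arrays, 2 turned sign, both near 0: Eps8 (0.00844 after quantile normalization) and Baiap2l1 (−0.00746 as the mean of probe sets).

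The fits with each array left out in turn used the deposited values, where bright genes tended to read higher on knockout 1 and heterozygous 2. The share of all genes that turned sign in them was not counted. With 1 array left out, 14 genes of the list kept their sign and 16 did not. The log2 differences then ranged from −0.468 to 1.28 for Pls3, −4.12 to 0.439 for Pdzk1, −0.844 to 1.63 for Actn1, −0.49 to 0.425 for Eps8, −1.96 to 1.47 for Gsn and −0.399 to 0.0413 for Actn4. They ranged from −0.524 to 0.106 for Eps8l2, −0.394 to 0.683 for Myo1d, −0.365 to 0.447 for Tpm1, −0.34 to 0.133 for Myo7b and −1.01 to 0.14 for Espn. They ranged from −0.517 to 0.102 for Slc9a3r2, −0.349 to 0.578 for Baiap2l1, −0.104 to 0.604 for Capzb, −0.492 to 0.446 for Myo6 and −0.259 to 0.0894 for Eps8l3. Having 2 arrays a label limits every comparison here, and Slc9a3r2, Pls3 and Fscn1 were also dim.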
